A study of Homo sapiens with 42 samples.

Results

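IGFBP1, the gene of insulin-like growth factor binding protein 1, was followed on its 2 array probes, numbered 254 and 1303, which are all the probes that name IGFBP1 and no other gene. IGFBP1 is 1 of 5631 genes so named. They are 2 of the 7336 probes with a single gene name among 13824 probes on the array, and no probe that names several genes includes IGFBP1. The gene was chosen from measured values in an earlier look at these arrays. That choice is taken here to rest on its CM minus NCM difference at 3 h. Its values at 3 h are therefore given as a description with no test. Whether other times entered the choice is not known, so their p-values are not taken as independent of it. Differences at the other times were tested, each probe by itself.

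The RNA came from Hep3B, a human hepatoma line, and was measured on 42 arrays, 1 per culture. The tested cultures received CM, a medium the labels describe as rich in pro-inflammatory cytokines, and the others received the control medium NCM. Samples of both media were taken at T0 and after 15 min, 30 min, 1 h, 3 h, 6 h or 16 h, with 3 cultures for each medium and time. In each of 3 independent experiments a CM culture and an NCM culture were started from the same cells, which gives 3 pairs per time and 21 in all. The labels do not name the cytokines in CM or the cells it came from, and all cultures are of 1 cell line. Whether an experiment number stands for 1 batch of cells throughout the time course is not stated, and nothing beyond the 3 experiments separates the cultures.

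IGFBP1 is a small secreted protein made mainly by hepatocytes and by the decidua. It binds IGF-I and IGF-II in the circulation and holds them away from their receptor. In liver cells its gene is known to be repressed by insulin, through loss of FOXO1 from the promoter, and to be induced by glucocorticoid, cAMP, hypoxia and amino acid shortage, and by the cytokines interleukin-1, interleukin-6 and TNF. Its mRNA turns over fast, so that its level can follow a stimulus within hours.

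The label was set against marker genes, whose brightness on different probes does not compare their expression. All 15 listed hepatocyte and hepatoma genes, from ALB, albumin, and AFP, alpha-fetoprotein, to RBP4, a retinol carrier, were measured, at brightness percentiles between 69.9 and 99.4 of all probes (median 81.7). Of the markers of other cells, 3 of 8 leukocyte, 5 of 7 fibroblast, 5 of 6 endothelial and 1 of 4 cholangiocyte genes were measured, with median percentiles of 70.5, 49.99, 16.6 and 32.4. Some of these were as bright as listed hepatocyte genes, with ENG (endothelial) at 92.6, CD74 (leukocyte) at 84.2 and DCN (fibroblast) at 80.3, beside HP at 73.1 and APOB at 69.9. At 3 h the summed intensity of the leukocyte markers was 2.80 to 2.96 in CM and 2.66 to 3.47 in NCM, and that of the hepatocyte markers was 35.0 to 38.9 in CM and 33.1 to 39.2 in NCM. The fibroblast markers summed to 2.80 to 3.34 in CM and 2.93 to 3.83 in NCM, the endothelial ones to 4.01 to 4.43 in CM and 3.91 to 4.76 in NCM, and the cholangiocyte gene SOX9 had 0.443 to 0.752 in CM and 0.320 to 0.450 in NCM. The part of these markers in the IGFBP1 values was not tested. The deposited intensity had a mean near 1 on every array and a median between 0.354 and 0.807. The median correlation of an array with the others ranged from 0.723 to 0.892. Precision is limited by having 3 arrays per medium and time.

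Both IGFBP1 probes were measured above 0 on 42 of 42 arrays. Few probes of any array were below 0, with a median of 0.10% and at most 2.12% per array. By mean log2 intensity, probe 1303 stood at the 53.2 percentile of all probes and probe 254 at the 50.1 percentile, so both lay in the middle of the array's range. Over all arrays the normalized intensity of probe 1303 ran between 0.239 and 1.24, and that of probe 254 between 0.306 and 1.09. Intensities are given after quantile normalization. Differences are log2 values, CM less NCM, unless 2 times are named. A CM minus NCM difference, or its change between times, has an SE from 1 estimate of spread shared by the 21 pairs. The 3 h pairs enter that estimate. A difference between 2 times within a medium has an SE from the 21 arrays of that medium, without pairing. Limma drew both estimates toward the spread over all probes.

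On probe 1303, IGFBP1 was at its highest in CM at 3 h. At that time the 3 CM cultures had 1.17, 1.24 and 0.945, against 0.595, 0.319 and 0.410 in the NCM cultures of the same pairs. The groups did not overlap. The mean difference was 1.38, or 2.60-fold, with differences of 0.97, 1.96 and 1.20 in the 3 pairs (SD 0.52, n = 3). CM lay above NCM with no overlap at 3 h on 2.58% of all probes. A mean log2 change of at least 1 was seen on 0.130% of them, and 0% passed the adjusted test at 3 h. These shares are background beside a value that chose the gene, and nothing is read from them.

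Probe 254 showed a smaller difference at 3 h on the same arrays. It had 0.605, 0.528 and 0.644 in CM, against 0.490, 0.398 and 0.552 in NCM. CM was higher in 3 of 3 pairs, by 0.31 on average (SD 0.09, n = 3), while the 2 groups overlapped. Higher in 3 of 3 pairs held for 14.6% of all probes at 3 h. The difference was 1.24-fold on this probe, against 2.60-fold on probe 1303. In RNA from whole cultures, a change in the number of cells expressing the gene and a change in its RNA per cell cannot be told apart.

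At 1 h, probe 1303 was again higher in every pair. The CM cultures had 1.12, 0.864 and 0.660, against 0.478, 0.516 and 0.308 in NCM. The lowest CM value lay above the highest NCM value. The difference was 1.02, or 2.03-fold (SE 0.29, n = 3 pairs, SD of the pairs 0.25), with an unadjusted p of 0.00185 and an adjusted p of 0.977 over all probes by limma, and it did not pass the threshold of 0.05. At 1 h, 0% of all probes passed the adjusted test, 4.38% had an unadjusted p under 0.05, 15.6% were higher in 3 of 3 pairs and 2.40% had CM above NCM with no overlap. A mean log2 difference of at least 1 at 1 h was seen on 0.145%.

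Probe 254 had the opposite sign at 1 h. Its CM cultures had 0.528, 0.629 and 0.306, against 0.979, 0.614 and 0.359 in NCM. The groups overlapped, and CM was higher in 1 of 3 pairs. The difference was -0.36 (SE 0.27, adjusted p = 0.977 by limma), and it was -0.097 without replicate 1, whose pair had -0.89, and -0.56 without replicate 2.

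**Figure D1:**
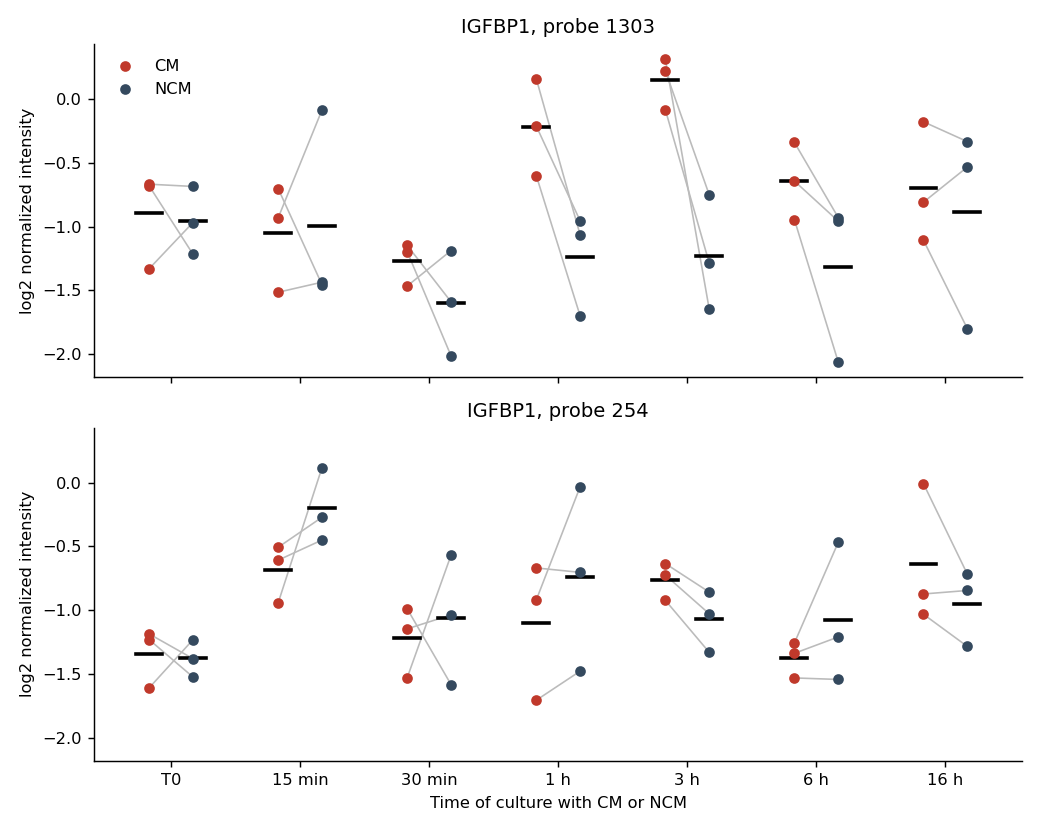
Level of IGFBP1 on 42 arrays, as log2 normalized intensity, for probe 1303 (top) and probe 254 (bottom) at 7 times; each point is 1 culture, CM left of NCM, grey lines join the cultures of a pair and black bars are means of 3. On probe 1303 the CM cultures lie above all NCM cultures at 1 h and 3 h, while on probe 254 the NCM cultures lie above all CM cultures at 15 min.

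At 6 h, probe 1303 was higher in CM in 3 of 3 pairs, with 0.641, 0.791 and 0.519 in CM, against 0.515, 0.525 and 0.239 in NCM. The groups overlapped. The difference was 0.67 (SE 0.29, n = 3 pairs) with an unadjusted p of 0.0285 and an adjusted p of 0.999 by limma. Higher in 3 of 3 pairs held for 13.3% of all probes at 6 h, 3.76% had an unadjusted p under 0.05 and 0% passed the adjusted test. Probe 254 had 0.395, 0.346 and 0.418 in CM, against 0.432, 0.343 and 0.724 in NCM, a difference of -0.30 (SE 0.27, adjusted p = 0.999 by limma) with CM higher in 1 of 3 pairs, and -0.058 without replicate 3.

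At 16 h both probes had small positive differences that the pairs did not share. Probe 1303 had 0.571, 0.885 and 0.464 in CM, against 0.691, 0.794 and 0.287 in NCM. Probe 254 had 0.489, 0.546 and 0.995 in CM, against 0.410, 0.557 and 0.608 in NCM. CM was higher in 2 of 3 pairs on each probe, by 0.19 (SE 0.29, adjusted p = 0.957) and by 0.31 (SE 0.27, adjusted p = 0.942) by limma, and 0.00723% of all probes passed at 16 h.

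The earlier times gave no test past the threshold on either probe. At 15 min, probe 254 had 0.520, 0.704 and 0.656 in CM, against 1.09, 0.829 and 0.732 in NCM. Here CM lay below NCM with no overlap, as on 1.82% of all probes (lower in 3 of 3 pairs on 9.51%), and the difference was -0.49 (SE 0.27, n = 3 pairs, adjusted p = 1.00 by limma). It was -0.20 without replicate 1 and -0.65 without replicate 3. Probe 1303 had 0.524, 0.615 and 0.350 in CM, against 0.944, 0.364 and 0.369 in NCM, a difference of -0.06 (SE 0.29, adjusted p = 1.00 by limma). At 30 min, probe 1303 had 0.362, 0.436 and 0.451 in CM, against 0.439, 0.247 and 0.332 in NCM, and probe 254 had 0.452, 0.346 and 0.504 in CM, against 0.487, 0.675 and 0.333 in NCM. The groups overlapped on both probes, and the differences were 0.33 on probe 1303, with 2 of 3 pairs higher, and -0.16 on probe 254, with 1 of 3 pairs higher (adjusted p = 0.997 on both by limma).

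At T0, the background of the later times, probe 1303 had 0.397, 0.630 and 0.624 in CM, against 0.511, 0.622 and 0.430 in NCM. Probe 254 had 0.327, 0.426 and 0.439 in CM, against 0.426, 0.348 and 0.384 in NCM. The groups overlapped, with differences of 0.064 and 0.037, each with 2 of 3 pairs higher. The T0 differences of single pairs reached -0.36 and 0.54 on probe 1303 and -0.38 and 0.29 on probe 254. Of the 12 tests of CM against NCM outside 3 h, over 2 probes and 6 times, 0 passed, and the smallest adjusted p was 0.942 by limma. Across the 5 times after T0 other than 3 h, probe 1303 had a mean difference of 0.43 (1.35-fold, SE 0.13, 15 pairs, higher in 11 of 15), with an unadjusted p of 0.00296 and an adjusted p of 0.670 by limma. Higher in at least 11 of these 15 pairs held for 8.18% of all probes, and 6.47% had an unadjusted p under 0.05 for this mean. Probe 254 had -0.20 (SE 0.12, adjusted p = 0.805 by limma), higher in 5 of 15, and at most 5 of 15 held for 17% of all probes. The fit treats the 15 pairs as independent although they come from 3 experiments.

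**Figure D2:**
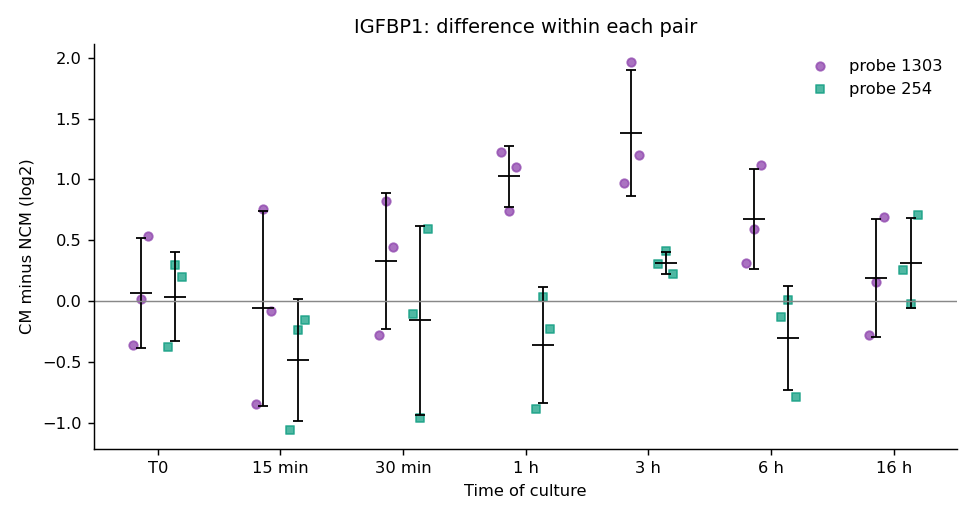
Difference of IGFBP1 within each pair, CM minus NCM on the log2 scale, at 7 times; circles are probe 1303, squares probe 254, and black bars are the mean of 3 pairs with its SD. Probe 1303 reaches means of 1.02 at 1 h, 1.38 at 3 h and 0.67 at 6 h, where probe 254 has -0.36, 0.31 and -0.30.

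The change in the CM effect between times was tested directly, again without 3 h. On probe 1303 the difference at 1 h exceeded that at T0 by 0.96 (SE 0.40, unadjusted p = 0.0276, adjusted p = 1.00 by limma), and 2.98% of all probes had an unadjusted p under 0.05 for it. Of 14 such tests over both probes, 0 passed, and the smallest adjusted p was 0.986 by limma. For 3 h the corresponding excess over T0, as a value only, was 1.32 on probe 1303 and 0.28 on probe 254.

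Within CM, the mean log2 level of probe 1303 ordered the times as 3 h (0.15), 1 h (-0.22), 6 h (-0.64), 16 h (-0.70), T0 (-0.89), 15 min (-1.05) and 30 min (-1.27). The 3 h level is part of the difference that chose the gene and is given as a value only. Of the 5 steps that do not involve 3 h, that between 1 h and 6 h was larger than the pooled SD of the neighbouring groups (0.34), and the other 4 were not. In CM at 1 h the cultures lay above those of T0 with no overlap, as did 3.87% of all probes. The level at 1 h minus T0 was 0.68 (SE 0.30, unadjusted p = 0.0367, adjusted p = 1.00 by limma), and 2.45% of all probes had an unadjusted p under 0.05 for it. It was 0.27 without replicate 1 and 0.97 without replicate 3. At 3 h the CM cultures also lay above T0 with no overlap on both probes, by 1.05 and 0.58, as did 5.16% of all probes. The F test over the 6 times other than 3 h gave an unadjusted p of 0.0390 and an adjusted p of 1.00 by limma, with 0.0145% of all probes past the threshold and 1.08% at an unadjusted p under 0.05.

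In NCM, the means of probe 1303 ran between -0.89 at 16 h and -1.60 at 30 min, 0 of the 4 steps that do not involve 3 h exceeded their pooled SD, and the F test had an unadjusted p of 0.591 and an adjusted p of 1.00 by limma. The largest distance from T0 was -0.64 at 30 min (SE 0.44, adjusted p = 1.00 by limma). Minus T0, the NCM levels at 1 h and 3 h were -0.28 and -0.27, where the CM levels were 0.68 and 1.05.

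Probe 254 had another order. In CM its highest means were at 16 h (-0.64) and 15 min (-0.69), and its lowest at 6 h (-1.38) and T0 (-1.34). In NCM its highest mean was at 15 min (-0.20), and its lowest at T0 (-1.38). In neither medium did any of the 4 steps that do not involve 3 h exceed the pooled SD. NCM at 15 min minus T0 was 1.18 (2.26-fold, SE 0.35, unadjusted p = 0.00360, adjusted p = 0.881 by limma), and the groups did not overlap, as on 4.70% of all probes, with 5.27% at an unadjusted p under 0.05. In CM, 15 min minus T0 was 0.66 (SE 0.30, unadjusted p = 0.0397) and 16 h minus T0 was 0.71 (SE 0.30, unadjusted p = 0.0284), with adjusted p of 0.999 and 1.00 by limma and no overlap with T0 at either time. For these CM comparisons 4.51% and 2.44% of all probes lay above T0 with no overlap, and 3.65% and 1.29% had an unadjusted p under 0.05. The F tests had adjusted p of 1.00 in both media.

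Probe numbers, read as places on 36 grids of 16 rows by 24 columns, allow each IGFBP1 probe to be set beside its up to 8 neighbours, with the layout assumed from the numbering. Over 42 arrays the log2 level correlated with the mean of the neighbours at r = 0.62 for probe 1303 and r = 0.58 for probe 254, and the median over all probes was 0.54. Around probe 254 the neighbours' mean at 15 min was above that at T0 by 1.18 in CM and by 1.34 in NCM. With each array's neighbour mean subtracted, the 15 min minus T0 values of probe 254 turned to -0.52 in CM and -0.16 in NCM. Around probe 1303 the neighbours' mean differed between CM and NCM by 0.03 at 1 h and by 0.19 at 3 h, and with the neighbours subtracted the IGFBP1 differences were 1.00 at 1 h (adjusted p = 0.704 by limma) and 1.19 at 3 h.

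**Figure D3:**
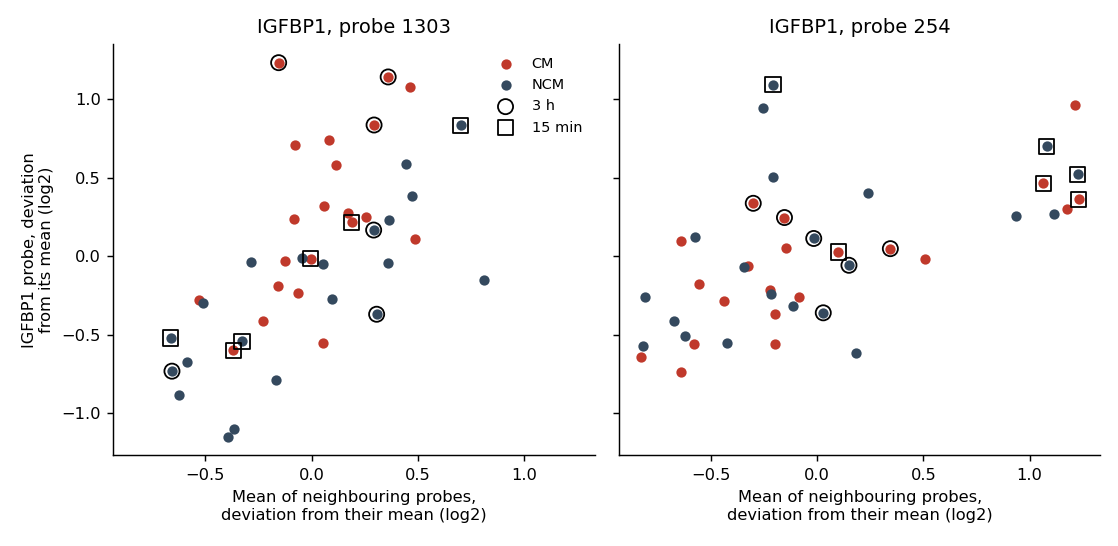
Each IGFBP1 probe against the mean of its neighbouring probes on 42 arrays, both as deviations from their own mean on the log2 scale; circles mark 3 h arrays and squares 15 min arrays, red is CM and dark grey NCM. Probe 254 lies on the right, with its neighbours, on several arrays of 15 min, and the 3 CM arrays of 3 h lie high on probe 1303 at neighbour values near those of other arrays.

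The correlation between the 2 probes was near 0 and its sign depended on the arrays used. Over 42 arrays their log2 levels correlated at r = 0.03 (Spearman rho -0.0019), and over 21 pair differences at r = 0.16 (rho 0.08), with the arrays shared by both. Without the 3 h arrays, which chose the gene, r was -0.061 for levels (n = 36) and -0.052 for pair differences (rho -0.17, n = 18). Without replicate 1, r was -0.13 and -0.054. With the values as deposited, where the arrays' different brightness stays in, r was 0.28 and 0.43. The direction of the difference was the same on both probes in 13 of 21 pairs, and in 10 of 18 without 3 h. Weak agreement was common on these arrays, since among 810 other genes with 2 probes the median r was 0.03 for levels (quartiles -0.17 and 0.22) and 0.02 for pair differences (quartiles -0.15 and 0.20). For levels 49.4% of those genes had a lower r than IGFBP1, and for pair differences, 3 h included, 69.3%. Probe sequences were not used here, so the parts of the transcript that the probes detect are not compared.

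**Figure D4:**
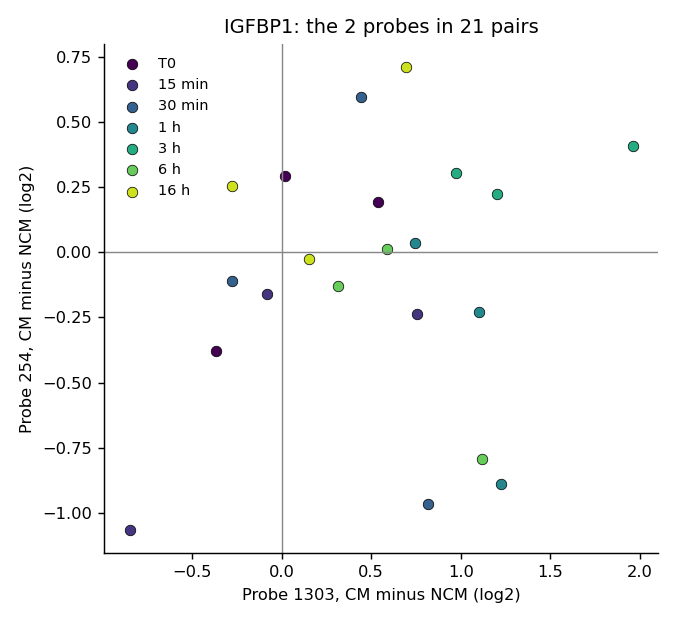
CM minus NCM of IGFBP1 in each of 21 pairs, on the log2 scale, probe 1303 on the horizontal and probe 254 on the vertical axis, coloured by time. The 3 pairs of 3 h are positive on both probes, and the 3 pairs of 1 h are positive on probe 1303, with 1 of 3 positive on probe 254.

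The genes most like IGFBP1 were named by correlation, each by its probe with the highest r, leaving out probes with values copied from another probe. Over 21 pair differences probe 1303 was most like SPTBN1, a spectrin gene (r = 0.75), CTDSPL, a phosphatase gene (r = 0.72), and LBP, the gene of lipopolysaccharide binding protein, an acute phase protein of the liver (r = 0.69). LBP, picked for its likeness over these same pairs, had differences of 0.84 at 1 h, 0.81 at 3 h and 0.24 at 6 h. A pattern like that of probe 1303 is built into this choice, and nothing is read from it. With neighbours subtracted the correlations of the 3 genes were 0.70, 0.60 and 0.65. With probe 254 the same 3 genes had r of -0.10, 0.36 and 0.0032. The 3 h differences that chose the gene enter these correlations. Without 3 h, an alternative chosen after seeing the data, r with probe 1303 was 0.75, 0.69 and 0.66 over 18 pair differences, and the 3 genes ranked 2, 10 and 17 of 5617.

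Over 42 levels probe 1303 was most like TTC19 (r = 0.62), FGG, the fibrinogen gamma chain gene (r = 0.61), and BLCAP (r = 0.60). With neighbours subtracted these were 0.074, 0.19 and 0.094, and the probes of TTC19 and BLCAP share its grid. Without 3 h they ranked 6, 11 and 7 of 5617 genes. Probe 254 was most like SPRYD4, RSL1D1 and ZNF24 over levels (r = 0.75, 0.73 and 0.72), all in its own grid. Over pair differences it was most like RAP1B, SLC38A5 and MEG8 (r = 0.81, 0.79 and 0.79), and the probes of RAP1B and SLC38A5 share its grid. With neighbours subtracted, r was -0.097, 0.55 and 0.49 for levels and 0.77, 0.65 and 0.57 for pair differences. Without 3 h these genes ranked 1, 2 and 11 for levels and 1, 3 and 2 for pair differences. Of the 100 probes most like it in level, 62 shared the grid of probe 254 and 32 that of probe 1303, where 1 grid holds 2.77% of the probes.

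Among the other binding proteins of the IGF family, 6 of 8 listed genes were measured. By limma 0 of them passed at any of the 7 times in either direction. Of all probes, 0% passed at every time but 16 h, where 0.00723% did. At 3 h the brightest probes of the 6 genes had a median difference of -0.06, with 3 of 6 above 0, and the median of all probes was 0.00. IGFBP2, an abundant binding protein of serum, had -0.17 at 3 h, -0.13 at 6 h and 0.069 at 16 h on its brighter probe. Its dimmer probe, number 246, had 0.14 at 3 h and 0.63 at both 6 h and 16 h. The adjusted p of this probe was 0.999 at 6 h and 0.942 at 16 h by limma.

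IGFBP3, the main carrier of IGF in serum, had 0.015 at 3 h and ranged between -0.40 and 0.56 over the 7 times. IGFBP4, which restrains IGF until the protease PAPP-A cleaves it, had 0.038, 0.068 and 0.35 at 3 h on its 3 probes. At other times its probe 9177 had 0.98 at 30 min (SE 0.28) and 0.53 at 1 h, and its probe 8033 had -1.07 at 16 h (SE 0.35). IGFBP5 had 0.42, IGFBP6, which prefers IGF-II, had -0.31, and IGFBP7, a low-affinity relative, had -0.13 at 3 h. The values of these last 3 genes ranged between -0.49 and 0.55 over the times.

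**Figure D5:**
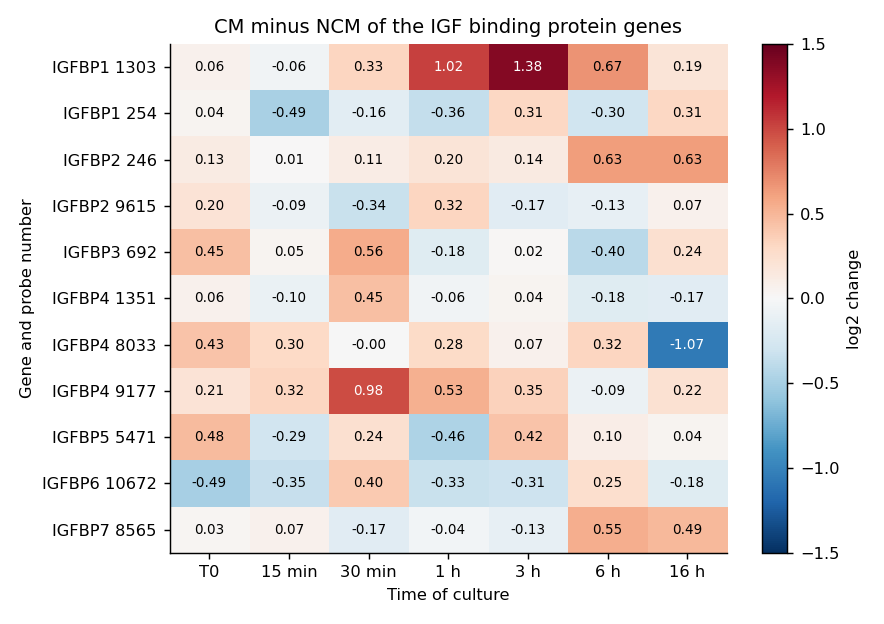
CM minus NCM on the log2 scale, as the mean of 3 pairs, for every probe of the IGF binding protein genes measured, at 7 times; each row is a probe, with IGFBP1 at the top. The cells of 1.02 and 1.38 on IGFBP1 probe 1303 stand beside values from -1.07 to 0.98 on the probes of the other genes.

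Of the ligands and receptors, 2 of 7 listed genes were measured. IGF1, the ligand made mainly by the liver, had 0.20 at 3 h and -0.46 at 16 h. INSR, the insulin receptor gene, had 0.18 at 3 h and -0.55 at 1 h on its brighter probe. Its dimmer probe had -0.46 at 3 h and -0.062 at 1 h. Neither gene passed at any time by limma, where 0% of all probes passed at every time but 16 h (0.00723%).

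The genes that act on IGFBP1 or respond to the same signals were counted in lists. In insulin signalling down to FOXO, 11 of 25 listed genes were measured, with a median at 3 h of -0.04 and 4 above 0. FOXO3, of the factors that insulin removes from the nucleus, had -0.55 at 3 h, and IRS2, an insulin receptor substrate, 0.096. Each of these values is from the brighter of 2 probes. Of the liver genes repressed by insulin or induced by cAMP and glucocorticoid, 15 of 19 were measured, with a median of 0.03 and 9 above 0. In it PCK1, a gluconeogenic enzyme regulated by insulin like IGFBP1, had 0.59 at 1 h and -0.16 at 3 h, and G6PC1, the glucose-6-phosphatase gene, had -0.26 at 1 h and -0.34 at 3 h.

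Of the liver transcription factors listed for the IGFBP1 promoter region, 5 of 13 were measured, with a median of -0.11 and 2 above 0 at 3 h. FOXA1, a liver pioneer factor, had -1.07 at 3 h, and its relatives FOXA2 and FOXA3 had -0.22 and -0.11. The probes of these genes have values copied from another probe at 1 or more times. CEBPD, a factor of the acute phase response, had 1.14 at 1 h and 0.55 at 3 h on the brightest of its 3 probes. This probe was higher in 3 of 3 pairs at both times, as were 15.6% and 14.6% of all probes. CEBPB, its relative, had 0.0078 at 1 h and 0.21 at 3 h on the brightest of its 3 probes, which has such copied values too. Of the hypoxia genes, 22 of 30 were measured, with a median of 0.09 and 15 above 0 at 3 h, among them VEGFA, an angiogenic factor, at 0.41. Of the genes of the integrated stress response, 13 of 20 were measured, with a median of -0.15 and 4 above 0 at 3 h. In that list ATF3, an immediate early factor, had 0.96 at 30 min, 0.34 at 1 h and -0.00028 at 3 h. Of the IGFBP proteases and their inhibitors, 8 of 15 were measured, with a median of -0.06 and 4 above 0. In these 6 lists 0 genes passed over all probes at any of the 7 times, higher or lower, by limma. Of all probes, 0% passed at every time but 16 h (0.00723%), and 50.8% were above 0 at 3 h.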

How the data were processed

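The deposited values are linear array intensities with a mean near 1 on every array, as the values themselves show. For the platform, scanner, background correction and scaling, the entry is the same: not given in the sources used here. The values were quantile normalized on the linear scale, set to at least the common 1 percentile (0.0813), and log2 was taken. Tests used R 4.3.3 and limma 3.58.1, with pairs as a block and a CM effect for each time, on 42 arrays (14 residual degrees of freedom). Tests were two-sided, with Benjamini-Hochberg adjustment across 13824 probes and a threshold of 0.05. Times within a medium were compared on its 21 arrays with no block, leaving 3 h out of the F test. The pairs come from the labels, and deviations of paired arrays correlated at 0.308 to 0.754 in 21 of 21 pairs. The p-values measure the spread between these cultures.

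Names came from the array annotation, matched by Entrez ID for 7322 of 7336 probes. A gene other than IGFBP1 was represented by its brightest probe unless stated. Genes named for their correlation with an IGFBP1 probe were represented by the probe with the highest r. Named genes were the 3 genes most correlated with each IGFBP1 probe, members past the threshold, and members of the IGF family; other named list members were selected with their values in view. The members and lists were chosen with earlier results of these data known. Alternatives were no pair block, the values as deposited, median centring, a floor at the 10 percentile, leaving out the dimmest 25% or 50% of probes, each time fitted alone, a trended robust spread, neighbour centring, and leaving out each replicate. The steps were tested on simulated data. Plots used matplotlib 3.10.9.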

Additional observations from a re-analysis of the deposited data

Results flagged for a closer look

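On IGFBP1 probe 254, CM was higher than NCM in 3 of 3 pairs at 3 h and lower in 3 of 3 pairs at 15 min, with mean differences of 0.31 and -0.49 and a gap of 0.80 on the log2 scale between them. The difference between these times was not tested, since 3 h chose the gene. The 15 min value was -0.20 without replicate 1 and -0.65 without replicate 3. With the values as deposited, CM was lower in 2 of 3 pairs at 15 min and higher in 3 of 3 at 3 h. On probe 1303 the same times had 1.38 and -0.06.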

How the results depend on the processing

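The 32 results for the 2 IGFBP1 probes had 378 values under the alternatives, and those for CM minus NCM at 3 h were not tested. Of the tested ones 0 passed the threshold, with a smallest adjusted p of 0.279 (limma), for the mean over 5 times on probe 1303. The sign of a difference was turned in 20 of the 378 values, all given here as values or ranges. On probe 1303 the difference at 1 h ranged from 0.89 to 1.16 (adjusted p 0.704 to 1.00), that at 3 h from 1.09 to 1.65 and that at 6 h from 0.45 to 0.85. Without the pair block (no replicate block) these differences were the same by construction, and 0 IGFBP1 tests passed, with an adjusted p of 1.00 at 1 h (unadjusted p = 0.0111, limma). With experiment number as a block (replicate block) in the comparisons of times, 0 passed either, and NCM 15 min minus T0 on probe 254 had an adjusted p of 0.727 (limma).

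With the values as deposited, probe 254 had -0.056 at T0, 0.033 at 30 min and 0.43 at 3 h, probe 1303 had 0.034 at 15 min, and r between the probes was 0.28 for levels and 0.43 for pair differences. With median centring probe 1303 had 0.0095 at 15 min. With neighbour centring probe 254 had -0.22 at T0 and r of levels was -0.17, and later time minus T0 was -0.16 (NCM, 15 min), -0.52 (CM, 15 min), -0.26 (CM, 1 h) and -0.35 (NCM, 30 min) on probe 254 and 0.030 (NCM, 15 min) on probe 1303. Leaving out a replicate gave -0.092 to 0.24 at T0 and -0.54 to 0.24 at 30 min on probe 254. On probe 1303 it gave -0.17 to 0.28 at T0, -0.46 to 0.34 at 15 min and -0.060 to 0.42 at 16 h. For later time minus T0 it gave -0.0043 to 0.58 (NCM, 30 min, probe 254), -0.50 to 0.33 (NCM, 15 min, probe 1303) and -0.44 to 0.18 (CM, 15 min, probe 1303). The r between the probes ranged from -0.13 to 0.13 for levels and from -0.054 to 0.23 for pair differences. Without replicate 1, CM 1 h minus T0 on probe 1303 was 0.27 and CM minus NCM on probe 254 was -0.20 at 15 min and -0.097 at 1 h. The cause of these changes was not tested. The 1 probe of the array past the threshold at 16 h was not called without the block, with deposited values or with median centring (0 in each), and the 2 past it in the F test became 1 with deposited values in each medium and 1 with median centring in NCM.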
